A study of Mus musculus with 19 samples.

Results

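The 8 genes Meis1, Meis2, Meis3, Pbx2, Pbx3, Pbx4, Pknox1 and Pknox2 were followed through the 5-hydroxymethylcytosine (5-hmC) maps of mouse cardiomyocytes (CMCs). They were chosen by name, as members of the Meis, Pbx and Pknox families, and all 8 are among the 20923 protein-coding genes with a curated RefSeq transcript that were measured. Of those genes, 18999 had a peak in at least 1 of the 8 peak lists, and all 8 members were among them.

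The maps come from hMeDIP, in which sonicated DNA is precipitated with an antibody against 5-hmC and sequenced. CMCs of C57BL/6J males were studied at 4 points, with 2 biological replicates each. The earliest point was the embryo at E14.5, followed by the neonatal pup (1 to 2 days, also called newborn here) and the adult mouse (2 months). In the last, TAC, adults had undergone transverse aortic constriction 1 week earlier, an operation that narrows the aorta and loads the left ventricle with pressure. Adult and TAC CMCs came from the perfused left ventricle and E14.5 and neonatal CMCs from digested ventricles, so that the isolation differed between these pairs of points and cannot be told apart from age. The number of animals behind a replicate is not given in the sources used here, no list of sham-operated mice was used, and the preparations were enriched for CMCs but not free of other heart cells.

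Meis, Pbx and Pknox proteins belong to the TALE class of homeodomain transcription factors. They form complexes with one another and with Hox proteins on DNA, and Meis1 is known in the mouse heart as a factor that holds the postnatal CMC cell cycle in check, acting in part through cyclin-dependent kinase inhibitor genes. 5-hmC is made from 5-methylcytosine by TET enzymes, and in many cell types it lies over the bodies of transcribed genes and is scarce at CpG-rich start sites.

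For each gene the window was its RefSeq span on mm10 and the 10 kb upstream of its start, and the measure was the percent of the window covered by peaks in each list. A cell population is measured as a whole, so fewer cells with the mark and less of it per cell cannot be told apart. The files hold no read counts, peaks carry no strength (the score is 1 throughout), and the median peak was 501 bp wide in every list. A gene was called higher or lower between 2 points when both replicates of one point lay above both of the other. With 2 replicates against 2 the exact two-sided permutation test cannot go below p = 0.333, so each count of such genes is read against the percent of all 18999 genes that met the same rule. A level was also divided by the mean of all protein-coding genes in the same list, here named the relative level, because lists differ in how much they call.

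The lists held 104215 to 153637 peaks, of which 56 to 115 lay in the windows of the 8 genes, and covered 3.73 to 7.35% of a protein-coding gene on average. TAC replicate 2 stood apart: its median peak centre lay 535 bp from the nearest centre of another list within 1 kb, against 133 to 215 bp in the other 7 lists. Windows of 5 CMC marker genes were covered to 8.52 to 34.4% on average, those of 5 endothelial genes to 4.55 to 12.6% and those of 6 fibroblast genes to 1.33 to 4.09%. All 5 CMC markers had a peak in each list. Of the fibroblast genes, Col1a1 (4.21 to 14.4%) and Col1a2 (1.09 to 3.27%) had one in all 8 lists, Vim in 6, Pdgfra in 5, Tcf21 in 1 and Col3a1 in none. As a purity check, the paper reports that peaks were absent within markers such as Vim, Col1a2 and Tcf21. The windows here also include 10 kb upstream and each list counts alone, while the paper kept peaks found in both replicates. The endothelial mean was highest in neonatal replicate 2, at 12.6%, and lowest in the TAC lists, at 4.57 and 4.55%. The part of the other cells in the results on the members was not tested.

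The levels differed widely within the families. Pbx2 was the most covered member at each point, with means between 16.8 and 25.9%, which was above 94.1 to 98.6% of all genes with a peak. Meis1 and Meis2 exceeded the mean of all genes in 8 of 8 lists and Pknox1 in 7. Meis3 exceeded it in 4 lists, Pknox2 in 3, Pbx4 in 2 and Pbx3 in none. At E14.5 the order of the means was Pbx2, Meis2, Meis3, Meis1, Pknox1, Pknox2, Pbx4 and Pbx3. The neighbours Meis2, Meis3 and Meis1 overlapped in their replicates there, as did Meis1 and Pknox1, while Pknox1 lay above Pknox2, Pknox2 above Pbx4 and Pbx4 above Pbx3 without overlap.

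**Figure D1:**
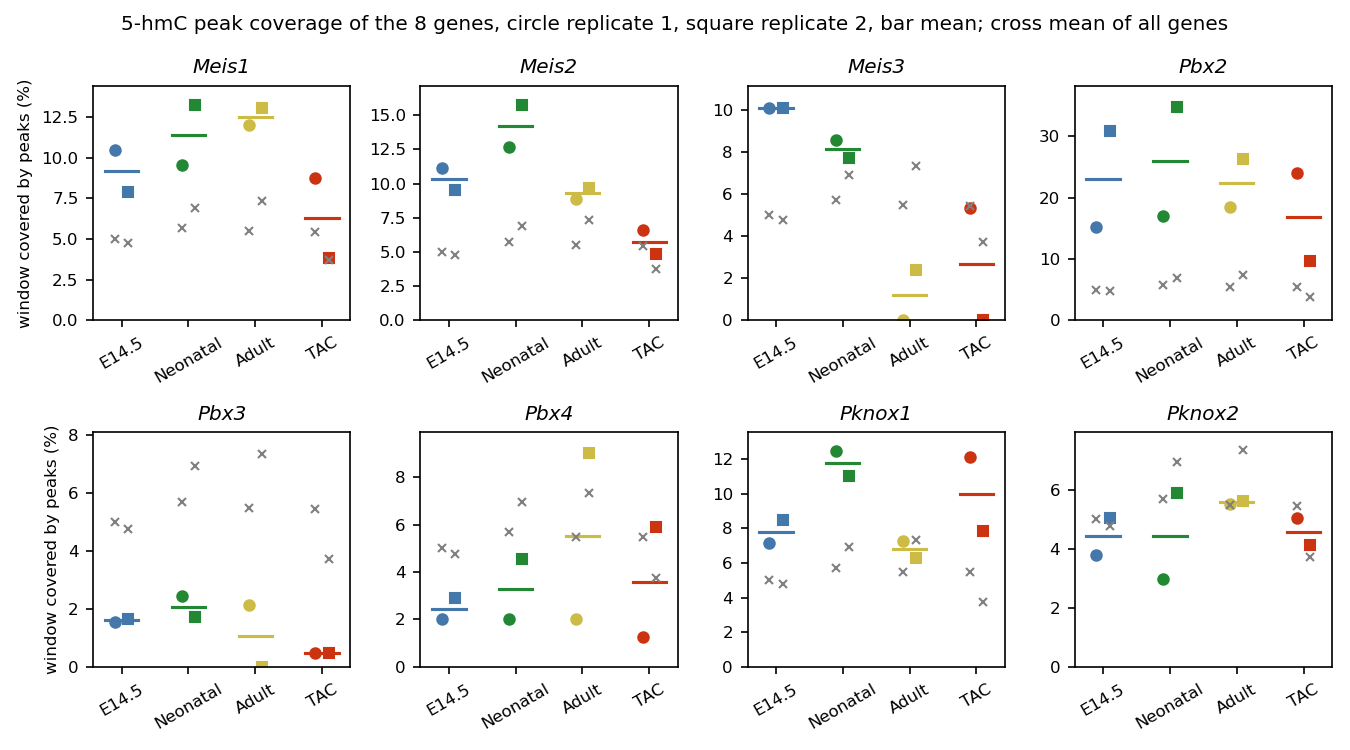
Percent of the window of each gene covered by 5-hmC peaks (y axis) at E14.5, neonatal, adult and TAC (x axis), with a circle for replicate 1, a square for replicate 2, a bar for their mean and grey crosses for the mean of all protein-coding genes in the same lists. Meis2 is highest in the neonatal lists, Meis3 is covered to 7.71% or more before adulthood and to at most 5.36% after it, and Pbx3 stays below the crosses throughout.

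Over the 4 points the spread between points was compared with that between replicates by an exact permutation test of all 105 ways to pair the 8 samples, one-sided for a larger spread between points. Meis2 gave p = 0.0190 and Meis3 p = 0.0476, and the other 6 members gave exact p between 0.181 and 0.914. The exact permutation p of Meis3 was 0.429 without the 10 kb upstream, 0.314 with only peaks wider than 501 bp, 0.0667 with peak centres, and 0.133 to 0.162 when any one E14.5, neonatal or adult list was left out. After Benjamini-Hochberg adjustment over 18999 genes no gene passed, the adjusted p of both Meis2 and Meis3 being 0.602, the smallest of the whole table. The unadjusted p was under 0.05 in 1384 genes, 7.28% of those tested, and in 11.6% of the 5644 genes with windows of at least 50 kb.

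Between E14.5 and neonatal CMCs, 3 members were higher without overlap (Meis2, Pbx3 and Pknox1), where the background is 24.9% of all genes and 32.7% of the long ones. Meis3 alone was lower, against a background of 6.63% of all and 7.8% of long genes. Relative to the mean of all genes none of the 8 was higher, with a background of 15.3%, and Meis3 remained lower, with a background of 19.2%.

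From neonatal to adult CMCs no member was higher, with a background of 14.8% of all and 13% of long genes, and 3 were lower (Meis2, Meis3 and Pknox1), with a background of 21.4% and 34.5%. The same 3 were lower in relative level, with 24.5% of all genes, and none was higher, with 16.2%. All 5 CMC marker genes were lower in adult than in neonatal lists as well.

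From adult to TAC, Pknox1 was higher, against 6.11% of all and 8.22% of long genes, and Meis1, Meis2 and Pknox2 were lower, against 22.5% and 27.3%. Pknox1 was again higher in relative level, against 15.9% of all genes, and Meis1 and Meis2 lower, against 12%. Of the 5 endothelial markers 4 were lower in TAC than in adult lists, and the part of this in the members' values was not tested. The adult lists enter both this comparison and the previous one.

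Across the whole span from E14.5 to adult, Meis1 and Pknox2 were higher, with a background of 26.9% of all and 30.5% of long genes, and Meis3 was lower, with 18.3% and 29.6%. On the relative scale no member was higher, with 19.5% of all genes, and Meis2, Meis3 and Pknox1 were lower, with 28.6%. With 8 members, the counts describe the named genes and are not read as a difference from the background.

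Meis1, the family member best known for postnatal CMC cycle arrest, lies on the minus strand at chr11:18880428-19018969. Its window was covered to 10.5 and 7.90% in embryos, 9.55 and 13.3% in newborns, 12.0 and 13.1% in adult CMCs and 8.75 and 3.84% under TAC. The adult replicates lay above those of E14.5 and of TAC and within the range of the neonatal ones. The mean was 12.5 ± 0.740% in adult and 6.29 ± 3.47% in TAC CMCs (SD, n = 2), a difference of -6.24 percentage points. Without TAC replicate 2 the difference was -3.78, where leaving out a list cannot bring overlap. Relative to the mean of all genes, Meis1 stood at 1.87 ± 0.303 in embryos, 1.79 ± 0.168 in newborns, 1.98 ± 0.290 in adult CMCs and 1.32 ± 0.406 under TAC, so that the higher adult level against E14.5 was not seen on this scale and the lower TAC level was.

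Peaks of the 8 lists that touched one another were merged into regions, 49 of them in Meis1. Of these, 19 were in 1 list and 11 in at least 6, and those 11 all lay in introns 6 to 9 of the 12-exon transcript. Coverage in E14.5 and neonatal lists was densest just past the middle of the gene. With the gene divided into 10 equal bins from its start, the means of bins 6 and 7 were 19.2 and 23.7% in embryos, 27.2 and 26.2% in newborns, 15.5 and 17.6% in adult CMCs and 9.33 and 8.08% under TAC. The 2 kb around its start sites were free of peaks in all 8 lists, and so was the 10 kb upstream in every list but the adult ones, which covered 5.01 and 6.79% of it. The adult peaks upstream lay at different sites in the replicates, 2.47 and 4.52 kb before the start.

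One Meis1 region, chr11:18923776-18926097 in intron 8 and 94.0 kb from the start, was in all 8 lists. A second, chr11:18959677-18961388 in intron 7, was in both E14.5 and both neonatal lists and in no adult or TAC list. Another, chr11:19008843-19009497 in intron 6, was in both adult lists and in none of the other 6. The stretch held by the most lists in each is printed below to show the sequence beneath a shared, an early and an adult peak, up to 300 bases around its centre. These regions were chosen after their values were seen, sequences are of the GRCm38 RefSeq assembly (mm10), 5′ to 3′ on the strand of the gene, and capitals mark CpG, the dinucleotide at which most mammalian cytosine modification occurs. They are chr11:18924512-18924550 (7 lists, 1 CpG), chr11:18960466-18960765 (3 lists, 3 CpGs) and chr11:19009018-19009317 (2 lists, 6 CpGs).
Meis1 intron 8, all points: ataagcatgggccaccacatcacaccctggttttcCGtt
Meis1 intron 7, E14.5 and neonatal: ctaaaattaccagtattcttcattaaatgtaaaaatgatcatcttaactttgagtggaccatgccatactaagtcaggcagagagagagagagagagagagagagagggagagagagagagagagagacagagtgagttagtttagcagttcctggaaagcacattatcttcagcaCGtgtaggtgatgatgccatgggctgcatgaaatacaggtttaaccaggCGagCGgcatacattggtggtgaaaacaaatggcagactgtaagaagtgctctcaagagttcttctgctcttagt
Meis1 intron 6, adult: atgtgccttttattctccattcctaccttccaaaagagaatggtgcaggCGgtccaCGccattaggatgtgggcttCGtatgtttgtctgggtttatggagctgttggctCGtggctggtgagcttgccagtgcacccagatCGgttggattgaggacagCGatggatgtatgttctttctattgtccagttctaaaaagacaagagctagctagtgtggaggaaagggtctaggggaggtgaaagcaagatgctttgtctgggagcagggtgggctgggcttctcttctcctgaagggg

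Meis2, a close paralogue of Meis1 with roles in the cardiac outflow tract and neural crest, lies on the minus strand at chr2:115861264-116067444. It was covered to 11.1 and 9.50% in embryos, 12.7 and 15.7% in newborns, 8.90 and 9.67% in adult CMCs and 6.57 and 4.87% under TAC. Both neonatal values lay above the other 6, a pattern met by 6.02% of all genes, and both TAC values lay below the other 6, as in 5.32% of all genes. The mean was 14.2 ± 2.16% in newborns, 9.29 ± 0.547% in adult CMCs and 5.72 ± 1.21% under TAC (SD, n = 2). The adult level was thus 0.654 times the neonatal one and the TAC level 0.616 times the adult one. Without TAC replicate 2 the difference between TAC and adult was -2.71 percentage points, against -3.56 with it.

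On the relative scale Meis2 stood at 2.11 ± 0.163 at E14.5 and 2.24 ± 0.0340 in neonatal CMCs, which overlap, and at 1.47 ± 0.215 in adult and 1.25 ± 0.0712 in TAC CMCs. The lower adult and TAC levels were thus also present relative to other genes, and the higher neonatal level against E14.5 was not. TAC lay below adult by little on this scale, with 1.62 and 1.32 in adult and 1.20 and 1.31 in TAC lists. When the gene was divided at its midpoint, means of 11.6, 15.8, 10.8 and 5.71% were found at the successive points in the part nearer the start, and 8.31, 11.9, 7.62 and 5.15% in the part nearer the end. In both parts the neonatal lists lay above E14.5 and above adult, and the TAC lists below adult, without overlap.

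**Figure D2:**
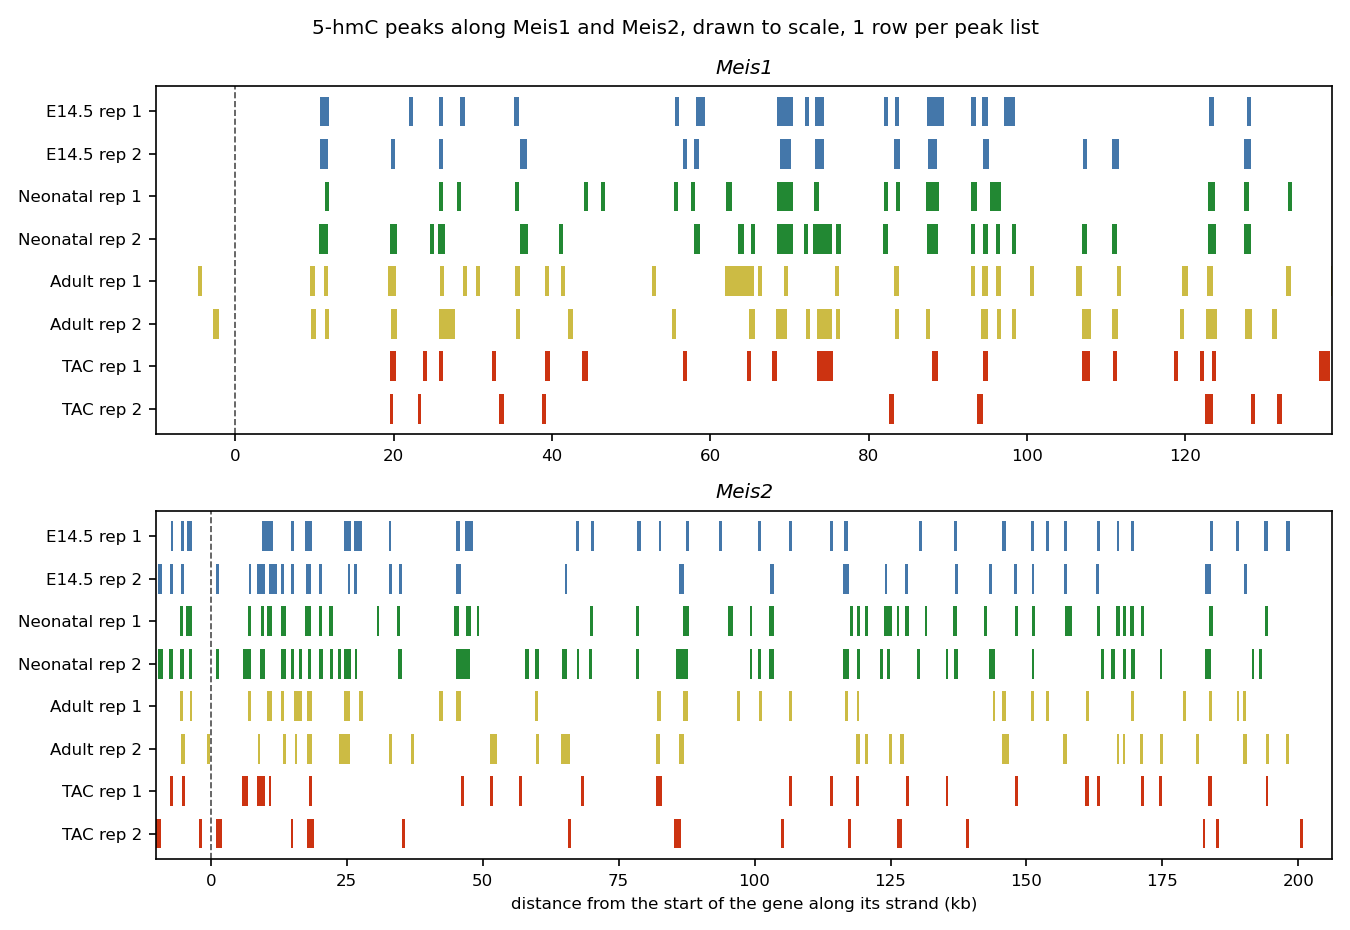
Peaks of Meis1 and Meis2 in each of the 8 lists (rows, coloured by point), by distance from the start of the gene along its strand in kb (x axis), with the start as a dashed line and the 10 kb upstream to its left. Peaks lie throughout both gene bodies, Meis1 has upstream peaks in the adult rows only, and Meis2 rows thin out from neonatal to TAC.

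Meis2 held 83 regions, of which 26 were in 1 list and 8 in at least 6. Of its regions, 8 were in both neonatal lists and no adult list, and 3 in both adult lists and no neonatal list. The 8 all lay in introns 8 and 9. The neonatal lists held 137172 and 153637 peaks and the adult ones 104215 and 121214. The share of all regions with these patterns is not given, so the counts only describe Meis2. Upstream of the gene, where 2 non-coding genes lie (G630016G05Rik and 2810405F15Rik), 7 of 8 lists held chr2:116072187-116073048.

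Only 1 stretch of the 8 genes was covered in both replicates of all 4 points, and it belonged to Meis2. It spans 464 bp at chr2:116048987-116049450, 18.2 kb from the start, has 7 CpGs, and contains the whole of coding exon 8 (chr2:116049084-116049198) of the 14-exon transcript with intron on both sides. With peaks allowed to lie up to 1 kb apart, 5 stretches met the rule, and with TAC replicate 2 left out 4 did. The central 300 bases of the Meis2 stretch, chr2:116049069-116049368 with its 7 CpGs, are printed as the site shared by all lists.
Meis2 exon 8, all points: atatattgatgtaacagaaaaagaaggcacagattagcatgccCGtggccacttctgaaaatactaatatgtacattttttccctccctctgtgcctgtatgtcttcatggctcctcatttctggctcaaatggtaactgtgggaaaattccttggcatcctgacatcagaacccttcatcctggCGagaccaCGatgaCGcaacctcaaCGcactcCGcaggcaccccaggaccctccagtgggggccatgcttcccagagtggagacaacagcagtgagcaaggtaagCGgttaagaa

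Meis3, the smallest Meis gene, lies on the plus strand at chr7:16175395-16186510. Its window was covered to 10.1% in both E14.5 lists, 8.58 and 7.71% in neonatal, 0 and 2.37% in adult CMCs, and 5.36 and 0% under TAC. Both E14.5 values lay above the other 6, as in 3.03% of all genes, and the neonatal values lay above all adult and TAC values. The mean was 8.15 ± 0.616% in neonatal and 1.19 ± 1.68% in adult CMCs (SD, n = 2). In a window of 21.1 kb a single peak of 501 bp covers 2.37%, which is the whole of the adult replicate 2 value, so the levels rest on few peaks. The TAC mean of 2.68 ± 3.79% rests on replicate 1, and replicate 2 held no peak.

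Meis3 held 8 regions. Peaks upstream of the gene were in both E14.5 and both neonatal lists, 5.01 to 13.0% of the 10 kb, and in no adult or TAC list. The 2 kb around the start site were covered to 25.1 and 31.6% at E14.5, to 0 and 9.70% in neonatal and not at all in adult and TAC lists. The region there, chr7:16175101-16176223, was in both E14.5 lists alone, but the replicates shared only a few of its bases. Without the upstream bases the E14.5 and neonatal values overlapped. The most common region, chr7:16185526-16186209 over intron 12 and 153 bp of exons, was in 6 lists and in 1 list each of adult and TAC.

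Pbx2 encodes one of the Pbx homeodomain proteins, the partners of Meis and Pknox proteins. It lies on the plus strand at chr17:34592259-34597400 and is short, with a window of 15.1 kb. It was covered to 15.2 and 30.9% in embryos, 17.0 and 34.8% in newborns, 18.4 and 26.3% in adult CMCs and 23.95 and 9.69% under TAC. The replicates of a point differed widely, with SDs of 5.59 to 12.6 percentage points (n = 2), and in none of the 4 comparisons were the points free of overlap. The window held 3.05 CpGs per 100 bp, more than 99.1% of the genes with a peak, where the median gene held 1.21. The other members ranged from 0.729 (Pbx3) to 1.67 (Pknox1).

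The place of the peaks within Pbx2 also varied. The part from the midpoint to the end of the gene was covered to 0 and 29.6% in embryos, 0 and 30.5% in newborns, 63.7 and 48.3% in adult CMCs and 30.2 and 17.2% under TAC, and the adult values lay above all others. Exons together were covered to 43.2 and 40.0% in adult lists and to 9.64 to 29.0% in the other 6. The part after the midpoint, 2.57 kb long, was chosen for mention after its values were seen, and the share of all genes with its pattern is not given. In the part before the midpoint the adult replicates differed, with 0 and 67.6%. There the E14.5 and neonatal lists held 55.5 to 61.9% and the TAC lists 71.9 and 15.3%. Bin 1 of 10, at the start site, held no peak in any list.

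Both of the Pbx2 regions in all 8 lists are wide. One, chr17:34592851-34597064, is a chain of merged peaks that together fill most of the gene. Its lists do not all share a base: the peak lay 0.793 to 2.31 kb from the start in E14.5 replicate 1 and 3.17 to 4.81 kb in adult replicate 1. The other, chr17:34588700-34591913, lies upstream, where Notch4 and Gpsm3 also lie within the window. In the upstream region 7 lists, all but TAC replicate 2, held the stretch chr17:34590696-34590916, of which 175 bp are exons of Gpsm3, so its peaks cannot be assigned to Pbx2. Its sequence is printed because it is the widest of the stretches of these regions held by the most lists, and it holds 6 CpGs in 221 bases.
Pbx2 upstream, in Gpsm3: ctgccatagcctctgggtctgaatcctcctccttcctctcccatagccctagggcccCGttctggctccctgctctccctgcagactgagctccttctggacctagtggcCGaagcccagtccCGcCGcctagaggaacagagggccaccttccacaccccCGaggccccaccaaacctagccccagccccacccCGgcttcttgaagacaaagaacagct

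Pbx3 lies on the minus strand at chr2:34171457-34372045 and, despite a window of 211 kb, was the least covered member. Its values were 1.55 and 1.67% in embryos, 2.44 and 1.73% in newborns, 2.14 and 0% in adult CMCs and 0.476% in both TAC lists. They stayed below the mean of all genes in each list. The neonatal values were above those of E14.5 by 0.476 percentage points in the mean, which is about 2 peaks of the usual width, each covering 0.238% of the window, and they overlapped on the relative scale. Of its 27 regions, 16 were in 1 list and none in 6 or more.

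Pbx4 lies on the plus strand at chr8:69832624-69872292. It was covered to 2.02 and 2.88% in embryos, 2.02 and 4.56% in newborns, 2.02 and 9.02% in adult CMCs and 1.26 and 5.88% under TAC. Replicate 2 was above replicate 1 at each point, and in none of the 4 comparisons were the points free of overlap. The region chr8:69831920-69833362, which includes exon 1 and holds 3.95 CpGs per 100 bp, was in 6 lists, namely both E14.5, both TAC, 1 neonatal and 1 adult. Its peak spanned the start site in TAC replicate 2 and began 0.054 to 0.230 kb past it in the other 5. The 10 kb upstream overlap the gene Lpar2.

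Pknox1, also called Prep1, encodes a Meis-related partner of Pbx proteins. It lies on the plus strand at chr17:31564773-31607693. It was covered to 7.14 and 8.46% in embryos, 12.4 and 11.04% in newborns, 7.29 and 6.28% in adult CMCs and 12.1 and 7.86% under TAC. The neonatal values lay above those of E14.5 and adult, and the TAC values above those of adult, though TAC replicate 2 did so by little. The mean was 11.7 ± 0.998% in newborns, 6.78 ± 0.715% in adult CMCs and 9.98 ± 2.997% under TAC (SD, n = 2). From adult to TAC the difference was 3.20 percentage points, and 5.31 without TAC replicate 2. On the relative scale Pknox1 stood at 1.60 ± 0.249, 1.89 ± 0.417, 1.09 ± 0.335 and 2.16 ± 0.0775 at E14.5, neonatal, adult and TAC, and both the lower adult and the higher TAC level held, while neonatal and E14.5 values overlapped.

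The difference between adult and TAC depended on the 10 kb upstream. These were covered to 0 and 5.01% in adult and to 14.2 and 10.02% in TAC lists, and without them the difference of 1.70 percentage points no longer separated the replicates. With peaks wider than 501 bp alone it was 0.355 percentage points, also with overlap. No base of the window was covered in both TAC lists, against 933 bp in both adult and 3507 bp in both neonatal lists. The upstream TAC peaks of the replicates thus lay at different places. Between neonatal and adult the part before the midpoint of the gene differed without overlap, with 24.8 and 17.98% in neonatal and 10.3 and 10.8% in adult lists. The part after the midpoint held 2.33 and 4.67% in neonatal and 7.65 and 2.33% in adult lists, with overlap.

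Pknox1 held 21 regions. One at chr17:31555231-31556821, 8.75 kb upstream, and one at chr17:31566119-31568268 in intron 1 were in 7 lists each. Another, chr17:31574037-31576453 in intron 1, was in both neonatal and both TAC lists, in 1 E14.5 list and in no adult list. Within it the peaks of the points did not all coincide: the stretch held by most lists, chr17:31574912-31575265, was in both neonatal lists and E14.5 replicate 2, and the TAC peaks lay beside it. Its central 300 bases, chr17:31574939-31575238 with 2 CpGs, are printed as the sequence without an adult peak, chosen after its values were seen.
Pknox1 intron 1, neonatal: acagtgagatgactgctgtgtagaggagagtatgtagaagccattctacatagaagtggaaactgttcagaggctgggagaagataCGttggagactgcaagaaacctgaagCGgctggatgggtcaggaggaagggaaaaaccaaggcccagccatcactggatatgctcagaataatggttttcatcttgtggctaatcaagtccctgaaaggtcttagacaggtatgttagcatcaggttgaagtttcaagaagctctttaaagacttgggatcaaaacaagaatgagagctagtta

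**Figure D3:**
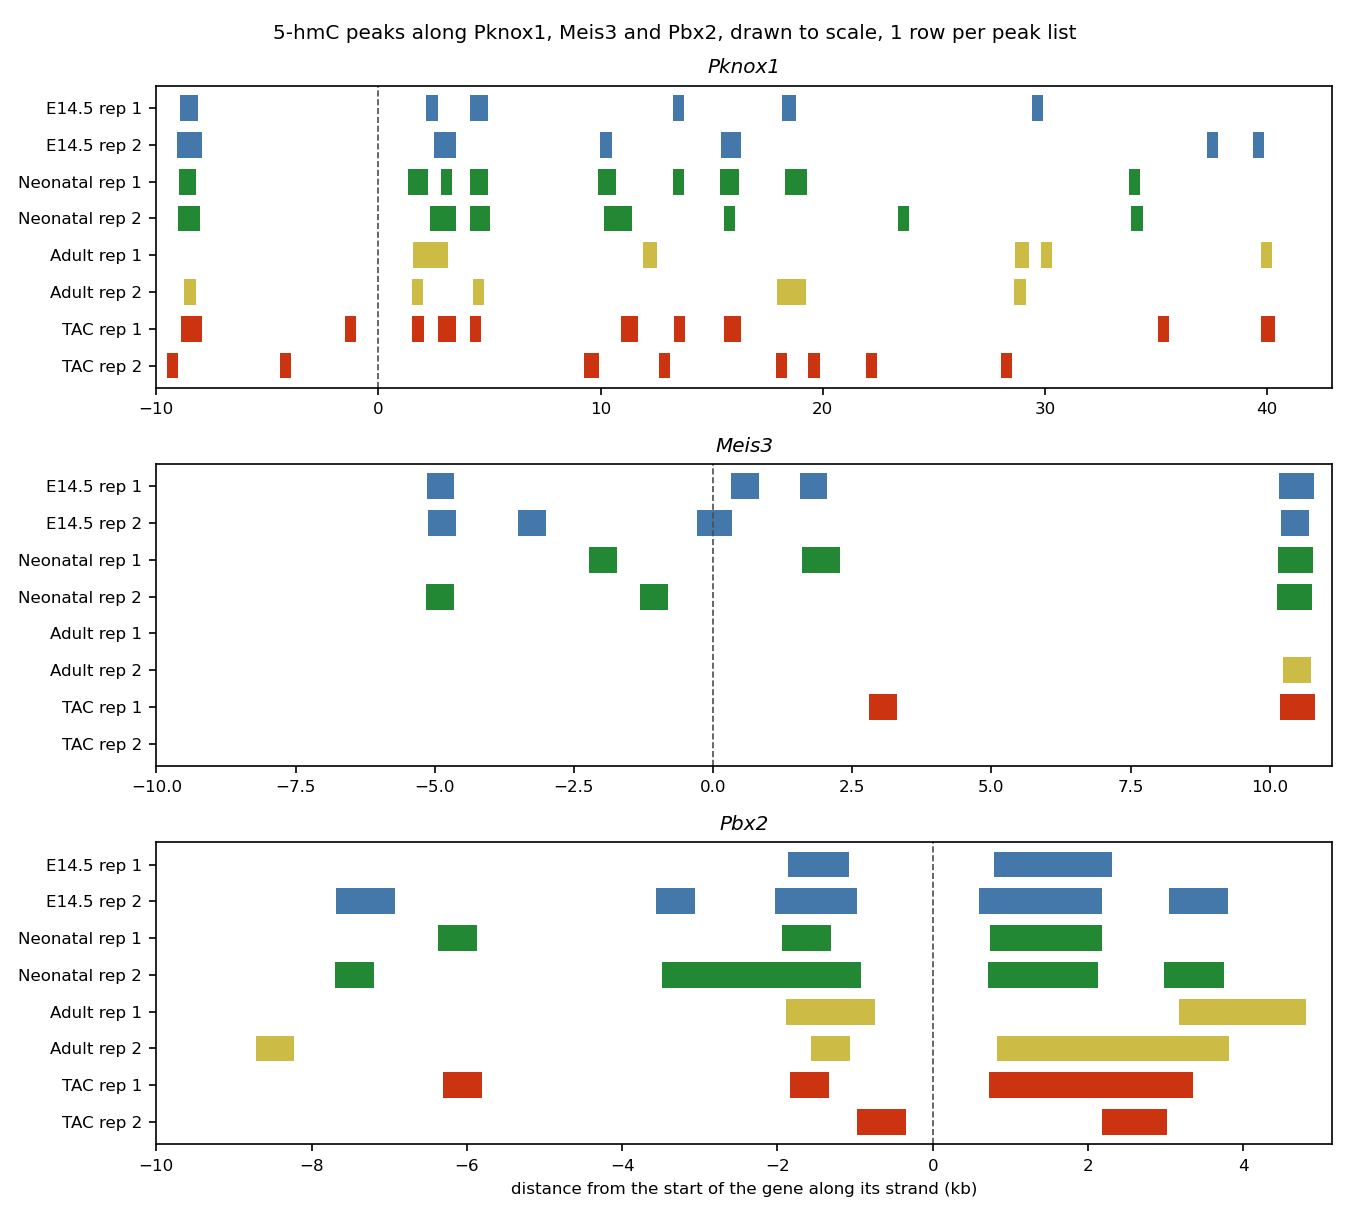
Peaks of Pknox1, Meis3 and Pbx2 in each of the 8 lists (rows, coloured by point), by distance from the start of the gene along its strand in kb (x axis), with the start as a dashed line. The adult rows of Meis3 hold at most 1 peak, adult replicate 1 of Pbx2 reaches furthest towards the end of the gene, and the adult rows of Pknox1 have no peak about 10 kb from the start.

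Pknox2, the paralogue of Pknox1, lies on the minus strand at chr9:36890979-37147322 and has the longest window, 266 kb. It was covered to 3.78 and 5.06% in embryos, 2.97 and 5.90% in newborns, 5.52 and 5.64% in adult CMCs and 5.05 and 4.12% under TAC. The adult values lay above those of E14.5 and TAC, with a difference of 1.15 percentage points from E14.5 to adult and -0.991 from adult to TAC. On the relative scale both differences turned, to -0.0243 between E14.5 and adult and 0.129 between adult and TAC, with overlap. Of its 82 regions, 41 were in 1 list, and the one in 7 lists was chr9:37054197-37055424 in intron 2. Regions in both adult lists and no neonatal list numbered 5, against 1 in the opposite direction, and the share of all regions with these patterns is not given.

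Over all 8 genes there were 286 regions, of which 124 were in 1 list and 26 in at least 6. Of those 26, Meis1 and Meis2 held 19, and the share of all regions in at least 6 lists is not given. Regions common to both replicates were 36 in embryos, 51 in newborns, 37 in adult CMCs and 11 under TAC. The paper also reports a lower percentage of peaks shared by the replicates for TAC across its peak lists. The same count over all genes is not given here, so the lower TAC number is not read as particular to the members. With peaks up to 1 kb apart the TAC number was 24. TAC replicate 2, with its displaced centres, also held the fewest member peaks, 56, and the part of this list in the TAC number was not tested. Regions in both E14.5 and both neonatal lists and in no adult or TAC list numbered 2, and regions in both adult lists but no E14.5 or neonatal list numbered 5. For these patterns too the share of all regions is not given.

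**Figure D4:**
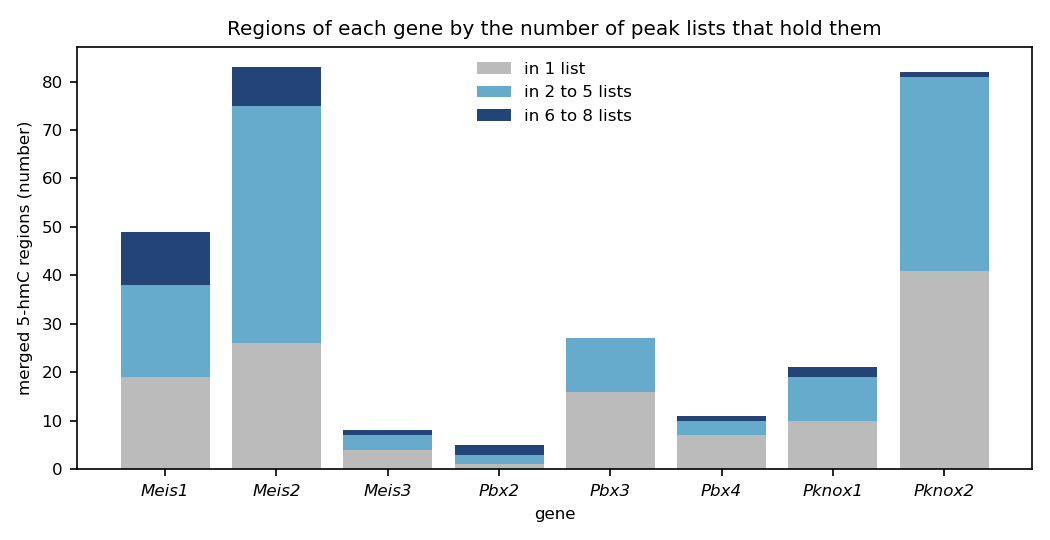
Number of merged 5-hmC regions in each gene (y axis, bars from 0), divided by whether 1 list, 2 to 5 lists or 6 to 8 lists hold them. Meis1 and Meis2 hold 11 and 8 of the 26 regions in at least 6 lists, and Pknox2 holds 1 of its 82.

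The RefSeq promoter table (300 bases around the start) matched 5 members, Meis1, Meis2, Meis3, Pbx2 and Pbx4. Those of Meis1 and Pbx2 held no peak in any list, that of Meis3 in E14.5 replicate 2 alone and that of Pbx4 in TAC replicate 2 alone. The Meis2 entry, chr2:116064570-116064869, lies inside the gene and not at the start used here, and held no peak. The bases within 1 kb of the annotated Meis2 starts were covered in the replicate 2 lists alone, to 3.40 to 13.97%. Under peaks, the CpG content was higher than in the window in all 8 lists for Meis2 and Pbx4, in 7 of 8 for Meis1 and Pknox2 and in all 7 lists with a peak for Pbx3. It was lower than in the window in 7 of 8 lists for Pknox1 (1.11 to 1.51 per 100 bp against 1.67), in 6 of 8 for Pbx2 and in 5 of 6 with a peak for Meis3. For Meis2 it was 1.29 to 1.77 per 100 bp against 1.09. For Meis1 it was 0.579 in TAC replicate 2 and 1.27 to 1.76 in the other lists, against 1.01 in the window.

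The motifs that these proteins bind were sought on both strands in the peaks of 501 bp. TGACAG, the core bound by Meis and Pknox proteins, was in 33.4% of 389 member peaks and in 30.2% of all 578707 peaks of that width. TGATNNAT, the core of Pbx-Hox complexes, was in 22.1% and 18.4%. None of the 6 printed sequences held either motif.

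The other TALE homeobox genes measured were Irx1 to Irx6, Tgif1, Tgif2 and Mkx, 9 in all. From neonatal to adult, 3 of 9 were higher (Irx1, Irx3 and Irx4) and 1 was lower (Mkx), where 14.8% and 21.4% of all genes were. From E14.5 to adult 4 were higher (Irx1, Irx3, Irx4 and Irx5) and 1 lower (Mkx), against 26.9% and 18.3% of all genes. Irx3, which takes part in the cardiac conduction system, was covered to 15.2 and 11.8% in newborns, 28.4 and 30.1% in adult CMCs and 19.9 and 12.3% under TAC. Irx1 had no peak at E14.5 or in neonatal lists and was covered to 6.57 and 8.98% in adult lists. Mkx was covered to 1.88% in both neonatal lists and 0.628% in both adult ones, as much as 3 peaks and 1 peak of 501 bp cover. Irx4, which encodes a ventricular factor, was the 1 gene of the 9 that was higher in neonatal than in E14.5 lists, at 21.2 and 21.3% against 10.8 and 5.24%. From adult to TAC none of the 9 was higher and 3 were lower (Irx1, Irx3 and Irx6), against 6.11% and 22.5% of all genes. Irx6 had no peak in either TAC list and 3.01% in both adult lists, as much as 1 peak of 501 bp covers.

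Of 4 partners of Meis and Pbx proteins, Hoxa9 had no peak in any list, and Hoxb13, a Hox factor studied beside Meis1 in CMC proliferation, had a peak in both neonatal lists alone, each covering 4.07% of the window. Hand2 had a peak in neonatal replicate 2 and TAC replicate 2. Pbxip1, which encodes a protein that binds Pbx proteins, was covered to 22.3 and 19.1% in adult and 6.83 and 10.3% in TAC lists. It was thus lower without overlap, as were 22.5% of all genes. Among 3 cell cycle inhibitor genes linked to Meis1, Cdkn2a and Cdkn2b had no peak in any list. Cdkn1a, which encodes a cyclin-dependent kinase inhibitor, was covered to 5.07 and 10.2% in adult and 10.9 and 13.4% in TAC lists. It was thus higher without overlap, as were 6.11% of all genes, and a link to the Meis1 values was not tested. The E14.5 values of Cdkn1a were 2.41 and 10.9% and its neonatal values 6.92 and 19.6%.

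The genes most like Meis1 and Meis2 in coverage over the 8 lists were sought among 4451 genes with windows of at least 50 kb and a peak in each list. For Meis1 they were Tfeb, Trio and Tet3, with Pearson's r of 0.980, 0.978 and 0.975 over 8 samples, against 0.890 for the mean of all genes. For Meis2 they were Creb3l2, Zfp462 and Arhgap31, with r of 0.989, 0.989 and 0.978, against 0.625 for the mean of all genes. These are descriptions of 8 lists that share depth and calling, with no test. Zfp462 went from 12.5 and 11.9% at E14.5 to 15.3 and 18.01% in neonatal, 10.9% in both adult and 7.85 and 7.16% in TAC lists, above Meis2 in all 8.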

How the data were processed

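The 5-hmC hMeDIP-seq peak lists of 8 samples (4 points, 2 replicates each) out of 19 were used; the other samples, inputs and sh-control libraries among them, were not analysed here. The authors aligned reads to mm10 with BWA 0.7.4-r385, marked duplicates with Picard, removed reads of mapping quality below 10 with bamtools 2.2.3 and called peaks per replicate against input with HOMER 4.5 in histone mode. The deposited score column is 1 for every peak and ranks nothing. The files give no read counts and the study's own read totals were not used, so no counting interval is given, and a deeper library can yield more peaks.

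Windows came from 45657 curated RefSeq transcripts (GRCm38, release 108.20200622). Coverage was computed in Python 3.11.15 with numpy 2.4.6, scipy 1.17.1 and pysam 0.24.0, and checked on simulated lists. Samples were grouped by point. The tests were the call without overlap of replicates and the exact permutation test over divisions into pairs, with Benjamini-Hochberg adjustment over 18999 genes. The p-values set the spread between points against the spread between these replicates only.

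The members and gene lists were chosen with earlier results of these data known. All 8 members are named, other lists by their counts and called genes, and the 3 genes most like Meis1 and Meis2 by Pearson's r. Printed sequences were the stretch at all 4 points and, chosen after values were seen, stretches of other regions. Alternatives were the gene span alone, the relative scale, peak centres per 100 kb, peaks wider than 501 bp, peaks extended by 500 bp, the longest transcript, another overlap, omission of each list in turn and a replicate block.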

Additional observations from a re-analysis of the deposited data

How the results depend on the processing

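Of 14 calls without overlap, those of Meis1 (adult to TAC), Meis2 (neonatal to adult, adult to TAC), Meis3 (neonatal to adult, E14.5 to adult) and Pknox1 (neonatal to adult) held under all 11 alternatives run for each. Omission of a list and the replicate block cannot undo a call without overlap, so only the other alternatives could have done so. Of these, the longest transcript changed the direction or call of none of the 32 differences. Where counts or directions changed, the cause was not tested. On the relative scale, members higher from E14.5 to neonatal numbered 0, higher from E14.5 to adult 0 and lower from E14.5 to adult 3. With the gene span alone, lower from E14.5 to neonatal was 0, higher from neonatal to adult 1 and higher from adult to TAC 0. With wider peaks only, lower from E14.5 to neonatal, higher from adult to TAC and higher from E14.5 to adult were 0. With peak centres and with extended peaks, higher from neonatal to adult was 2 and lower from E14.5 to adult 3. Pknox2 changed sign on the relative scale (0.129 adult to TAC, -0.0243 E14.5 to adult) and with wider peaks (0.391 and -0.228 percentage points), and Meis3 from E14.5 to neonatal with wider peaks (1.60).

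With 1 replicate left out, members higher and lower numbered 3 to 7 and 1 to 2 from E14.5 to neonatal, 0 to 3 and 3 to 6 from neonatal to adult, 1 to 2 and 4 to 5 from adult to TAC, and 2 to 3 and 2 to 3 from E14.5 to adult. The 7 came without neonatal replicate 1, the 3 higher without neonatal replicate 2. The p of Meis3 was 0.429 on the gene span, 0.0667 with peak centres, 0.314 with wider peaks and 0.133 to 0.162 without any one E14.5, neonatal or adult list (exact permutation). That of Pbx3 was 0.00952, the smallest possible, without adult replicate 1.

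Common regions at E14.5, neonatal, adult and TAC numbered 140, 164, 153 and 125 with a peak of either replicate, and 16, 25, 14 and 4 with wider peaks only. With an overlap of 50% they were 33 in neonatal, 22 in adult and 3 in TAC lists, and 24 in TAC lists with peaks up to 1 kb apart. A single list gave 87 to 89, 100 to 115, 91 to 99 and 56 to 80. Stretches at all 4 points numbered 0 with 50% overlap, 5 within 1 kb, 29 with either replicate and 1 to 4 with a list left out. The background in windows of at least 50 kb was 34.5% for lower from neonatal to adult, 29.6% for lower from E14.5 to adult and 11.6% for the 4 points.

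The deviations of same-numbered replicates correlated with r from -0.213 to 0.202 over 18999 genes, above 0.1 in 3 of 6 pairs of points, so samples were not treated as paired. With the replicate block, members higher and lower were 4 and 1, 0 and 4, 1 and 4, and 2 and 1 in the order above, and the exact permutation p was 0.0833 for Meis2 and 0.125 for Meis3, where 0.0417 is the smallest possible.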
